A study of Mus musculus with 17 samples.

Results

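The genes described here are 39 mouse genes that make, store, break down and take up fatty acids and triglyceride, chosen by name for these functions and taken from a table of 42794 genes. All 39 were found in the table once each, and 39 of 39 reached the level needed for testing, which was 1 FPKM in any 4 libraries, as did 13279 genes in all. FPKM counts the sequenced fragments of a gene per kilobase of its length, corrected for the size of the library. By role they comprise 2 transcription factors, 6 enzymes of fatty acid synthesis and its supply, 3 elongases, 10 enzymes of glycerolipid synthesis, 4 droplet coat proteins, 7 proteins of lipolysis and 7 of uptake and binding.

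RNA from whole mouse kidney was sequenced in 17 libraries to follow the role of glucagon in lipid synthesis by proximal tubule epithelial cells. The 7 libraries labelled Gcgr shRNA carry a hairpin against the glucagon receptor that was meant to act in proximal tubule cells, and their titles bear the abbreviation DKD. The 6 libraries labelled Ctr shRNA by genotype also bear DKD in their titles, which name them Vehicle, so it is uncertain if they had a control hairpin or just a vehicle. The 4 control libraries are labelled WT. The series concerns diabetic kidney disease. Not given in the sources used here were strain, sex, age, the way disease was induced, the delivery of the hairpin and the promoter that would restrict it to the proximal tubule. No label says that the libraries come from separate animals, and p-values therefore reflect the spread between libraries, which may be technical.

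A fatty acid is built in the cytosol from acetyl-CoA and NADPH, lengthened by elongases, and joined to glycerol step by step to form triglyceride. Triglyceride is kept in lipid droplets coated with perilipins and is taken apart by a chain of lipases. Proximal tubule cells burn fatty acids for most of their energy, and lipid droplets in tubules are a known feature of diabetic kidneys. In whole-kidney RNA, fewer cells of a type and less RNA per cell cannot be told apart.

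The libraries held 13997657 to 17107876 recovered reads each, and 12183 to 12919 genes reached an FPKM of 1. Gcgr, the target of the hairpin, was at 13.02 ± 1.70 FPKM in the libraries labelled Gcgr shRNA (SD, n = 7), at 9.74 ± 2.14 in Ctr shRNA (n = 6) and at 20.8 ± 2.42 in control (n = 4). It was thus not lowest where the label says it was knocked down, and each direction drawn from these libraries below is one of the label and not of a measured loss of the receptor. Summed FPKM of 15 proximal tubule markers was 3616 to 4824 in the libraries labelled Gcgr shRNA, 3194 to 4558 in Ctr shRNA and 4971 to 6039 in control. Markers of the proximal tubule, the bulk of the kidney cortex, were thus abundant in all 17 libraries. The library Ctr shRNA 20 stood apart, at 35.9 and 34.3 on the first and second principal components, and values without it are given for the 6 genes called below and for others that it moved. Ctr shRNA 4 also lay apart on the second component, at -26.0, where the remaining libraries spanned -11.0 to 17.4.

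Levels of the 39 genes spanned from under 1 FPKM to above 100 FPKM, a scale that is corrected for gene length. In control, 2 genes averaged at least 100 FPKM, 24 lay between 10 and 100, 12 between 1 and 10, and 1, the fat-cell perilipin Plin4, was under 1. Me1, the malic enzyme that makes cytosolic NADPH, was the most abundant. Its levels were 133, 158 and 199 FPKM (lowest, median, highest) in the libraries labelled Gcgr shRNA, 129, 164 and 203 FPKM in Ctr shRNA, and 196, 207, 173 and 188 FPKM in control libraries 37, 38, 39 and 41. Cd36, a fatty acid receptor of the cell surface, followed with 98.7, 105 and 167 FPKM in the libraries labelled Gcgr shRNA, 110, 130 and 174 FPKM in Ctr shRNA, and 137, 151, 119 and 139 FPKM in control. The 3 groups overlapped for both genes. Fasn, the fatty acid synthase itself, was far less abundant than Me1, at 7.78 ± 1.01 FPKM in the libraries labelled Gcgr shRNA, 8.02 ± 0.865 in Ctr shRNA and 9.35 ± 0.850 in control. The acetyl-CoA carboxylases, which make its substrate, were lower again. Acaca averaged 1.12 ± 0.169 FPKM in the libraries labelled Gcgr shRNA, 0.961 ± 0.269 in Ctr shRNA and 1.21 ± 0.143 in control, and Acacb averaged 3.96 ± 0.756 FPKM in the libraries labelled Gcgr shRNA, 3.68 ± 1.30 in Ctr shRNA and 4.70 ± 0.701 in control.

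**Figure D1:**
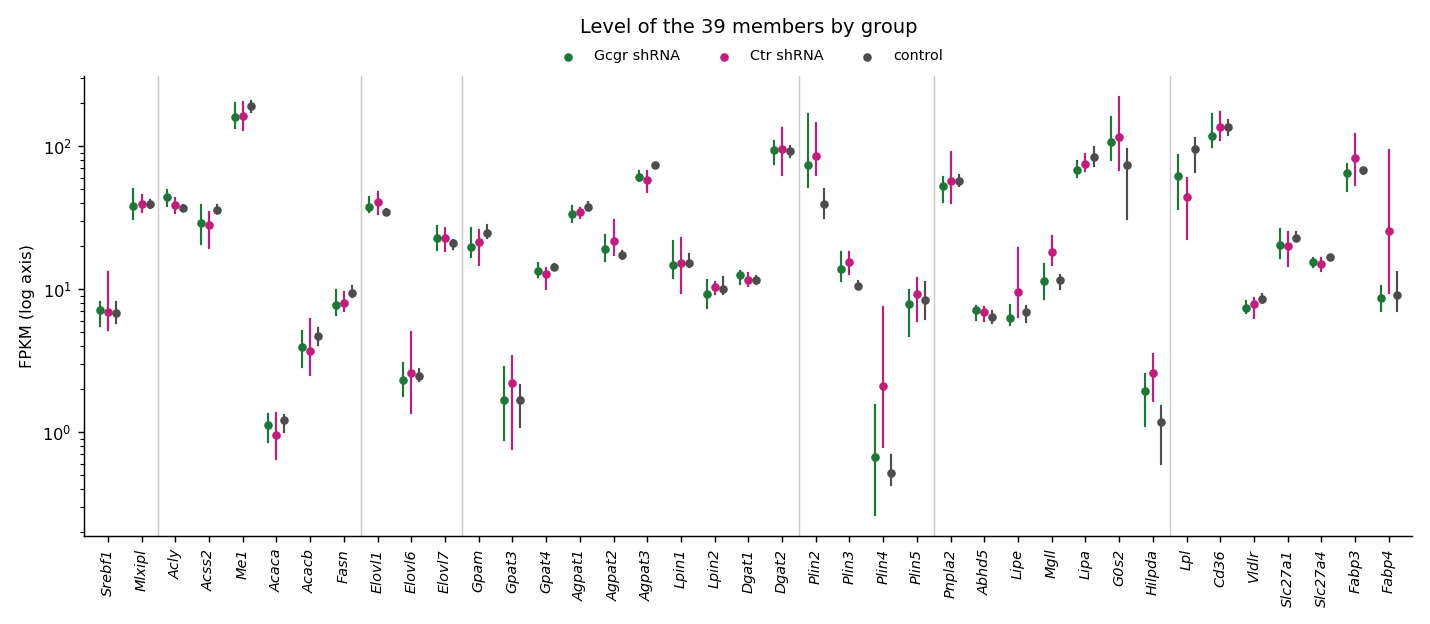
FPKM of each of the 39 genes on a log axis, by role, with the mean as a dot and the lowest to highest library as a line, for libraries labelled Gcgr shRNA (n = 7), Ctr shRNA (n = 6) and control (n = 4). For most genes the 3 lines overlap, and the longest lines are those of Plin4 and Fabp4 in Ctr shRNA.

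The first comparison asked how Ctr shRNA kidneys, which bear the disease abbreviation, differ from control kidneys. Of the 39 genes, 6 (15.4%) passed limma's test at a Benjamini-Hochberg adjusted p below 0.05, against 7.49% of all 13279 genes (3.58% higher and 3.91% lower). The 4 that rose, Plin2, Plin3, Hilpda and Mgll, coat the lipid droplet or act on lipolysis. The 2 that fell were Lpl, the lipoprotein lipase that frees fatty acids from plasma triglyceride, and Agpat3, an acyltransferase of glycerolipid synthesis. None of the 6 enzymes of fatty acid synthesis, of the 2 transcription factors or of the 3 elongases passed. Over the 39 genes the log2 fold changes were balanced, 19 above 0 and 20 below, with a median of -0.00071, and 51.5% of all genes were above 0, with a median of 0.0071. At an unadjusted p below 0.05 there were 12 of the 39 (30.8%), against 23.4% of all genes. The 12 include Plin4, which reached the level for testing only with Ctr shRNA 20 included. Limma voom on recovered reads also called 6, and 1059 of all 13279 genes. Without Ctr shRNA 20, 8 of the 38 genes then tested passed (21.1%, 5 higher and 3 lower), against 7.68% of 13183 genes (4.16% higher and 3.52% lower).

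Plin2 encodes the perilipin that coats droplets in most cells other than fat cells (ENSMUSG00000028494, GRCm38 chromosome 4, 86648386 to 86670060, minus strand). Its levels were 51.8, 57.8 and 169 FPKM (lowest, median, highest) in the libraries labelled Gcgr shRNA, 63.1, 66.7 and 144 FPKM in Ctr shRNA, and 38.8, 38.7, 31.5 and 49.8 FPKM in control libraries 37, 38, 39 and 41. Every library of both shRNA groups lay above the highest control. Plin2 rose 2.03-fold in Ctr shRNA against control on the log2(FPKM + 1) scale (log2 fold change 1.02 ± 0.30, SE, limma adjusted p = 0.0445). The call was lost with no filter on low values (adjusted p = 0.108) and without any 1 of the 4 control libraries, of Ctr shRNA 1, 4 or 6, or of the libraries labelled Gcgr shRNA 15, 29, 34 or 35, with adjusted p up to 0.140. Without Ctr shRNA 20 it stayed (1.09, adjusted p = 0.0417).

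Plin3 encodes a perilipin that moves between the cytosol and young droplets (ENSMUSG00000024197, chromosome 17, 56277476 to 56292873, minus strand). It was at 11.4, 13.7 and 18.3 FPKM in the libraries labelled Gcgr shRNA, at 12.7, 16.01 and 18.1 FPKM in Ctr shRNA, and at 10.2, 11.49, 10.5 and 9.98 FPKM in control. Each Ctr shRNA library exceeded each control library. Plin3 rose 1.43-fold in Ctr shRNA (0.52 ± 0.11, limma adjusted p = 0.0106), and the call held in all 26 alternatives, with adjusted p up to 0.0441. Without Ctr shRNA 20 the log2 fold change was 0.51 (limma adjusted p = 0.0163). The other perilipins gave values without a call. Plin5, which ties droplets to mitochondria, averaged 9.22 ± 2.01 FPKM in Ctr shRNA and 8.38 ± 2.19 FPKM in control (log2 fold change 0.13 ± 0.19, and 0.05 without Ctr shRNA 20). Plin4 was at 0.792, 1.00 and 7.51 FPKM in Ctr shRNA and at 0.427, 0.487, 0.695 and 0.474 FPKM in control. Those groups did not overlap, but the log2 fold change of 0.76 ± 0.34 did not pass (limma adjusted p = 0.191). Without Ctr shRNA 20 the gene fell under the level needed for testing. Plin4 lies across Hdgfl2 on the opposite strand, which was at a mean of 7.17 FPKM.

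Hilpda encodes a small droplet protein that inhibits the triglyceride lipase ATGL and is induced by low oxygen and by fatty acids (ENSMUSG00000043421, chromosome 6, 29272488 to 29275446, plus strand). It was at 1.11, 1.89 and 2.54 FPKM in the libraries labelled Gcgr shRNA, at 1.64, 2.58 and 3.50 FPKM in Ctr shRNA, and at 1.22, 1.39, 0.597 and 1.52 FPKM in control. The Ctr shRNA libraries all lay above control, while those labelled Gcgr shRNA overlapped both groups. Hilpda rose 1.65-fold in Ctr shRNA (0.72 ± 0.16, limma adjusted p = 0.0126). These levels rest on few reads, 287 over the 6 Ctr shRNA libraries and 80 over the 4 control libraries. Without control 39 the adjusted p was 0.0616, and without Ctr shRNA 20 it was 0.0219 (log2 fold change 0.69). With voom, which adds no pseudocount of 1 FPKM, the log2 fold change was 1.16.

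Mgll encodes monoacylglycerol lipase, the last step of triglyceride breakdown (ENSMUSG00000033174, chromosome 6, 88724412 to 88828360, plus strand). It was at 8.47, 11.02 and 15.1 FPKM in the libraries labelled Gcgr shRNA, at 14.7, 17.2 and 23.6 FPKM in Ctr shRNA, and at 12.5, 10.1, 11.54 and 12.6 FPKM in control. Ctr shRNA thus stood above control without overlap, and the libraries labelled Gcgr shRNA spread to both sides of the control range. Mgll rose 1.496-fold in Ctr shRNA against control (0.58 ± 0.13, limma adjusted p = 0.0123). The call was lost when each library was rescaled to the same total (adjusted p = 0.0781) and without control 38 (adjusted p = 0.0560). The highest level was that of Ctr shRNA 20, and without it Mgll still passed (0.50, adjusted p = 0.0179).

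The bases before the start of the 4 genes that rose are shown so that their promoters can be read beside these values, 250 bases each on GRCm38.p6, 5′ to 3′ on the strand of the gene, from RefSeq. Capitals mark letters of the motifs searched. The windows are chr4:86670060-86670309 on the minus strand for Plin2, chr17:56290512-56290761 on the minus strand for Plin3, chr6:29272238-29272487 on the plus strand for Hilpda and chr6:88724162-88724411 on the plus strand for Mgll. The RefSeq start of Plin3 lies 2362 bases inside the gene as deposited.
Plin2: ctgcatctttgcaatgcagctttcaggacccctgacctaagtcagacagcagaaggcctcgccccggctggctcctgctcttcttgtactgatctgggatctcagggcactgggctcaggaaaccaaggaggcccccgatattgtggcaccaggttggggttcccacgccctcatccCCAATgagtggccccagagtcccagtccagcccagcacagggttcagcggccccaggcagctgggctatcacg
Plin3: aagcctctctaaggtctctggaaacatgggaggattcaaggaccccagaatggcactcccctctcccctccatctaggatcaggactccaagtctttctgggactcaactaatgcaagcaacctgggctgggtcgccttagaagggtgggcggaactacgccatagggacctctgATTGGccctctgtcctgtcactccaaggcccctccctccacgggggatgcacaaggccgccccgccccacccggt
Hilpda: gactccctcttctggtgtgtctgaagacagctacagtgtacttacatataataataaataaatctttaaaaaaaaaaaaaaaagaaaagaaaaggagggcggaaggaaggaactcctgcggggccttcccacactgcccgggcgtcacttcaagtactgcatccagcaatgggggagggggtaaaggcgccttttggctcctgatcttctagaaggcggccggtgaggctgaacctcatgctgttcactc
Mgll: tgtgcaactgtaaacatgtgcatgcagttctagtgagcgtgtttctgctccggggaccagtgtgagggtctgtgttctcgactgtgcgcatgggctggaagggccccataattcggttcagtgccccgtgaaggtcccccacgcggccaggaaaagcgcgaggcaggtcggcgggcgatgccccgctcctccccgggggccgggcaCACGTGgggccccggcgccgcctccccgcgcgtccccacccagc

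Of the 39 genes, 34 had such a window in the RefSeq table, and 4 motifs were searched on both strands. CCAAT, the box bound by NF-Y, was in the windows of Plin2 and Plin3 (as ATTGG in Plin3, on the other strand), and in 14 of the 34 windows (41.2%), against 33.8% of all 32851 windows. The E-box CACGTG, which Mlxipl and other helix-loop-helix factors bind, was in the window of Mgll, in those of 4 of the 34 genes (11.8%), and in 6.02% of all windows. ACGTG, the only form of the core of the hypoxia response element that was searched, overlaps the E-box in its letters. It was in 8 of the 34 windows (23.5%), against 16.6% of all. None of the 34 windows held the cyclic AMP element TGACGTCA (1.55% of all windows). Hilpda's window held none of the 4. A match is a run of letters and not a shown binding site.

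**Figure D2:**
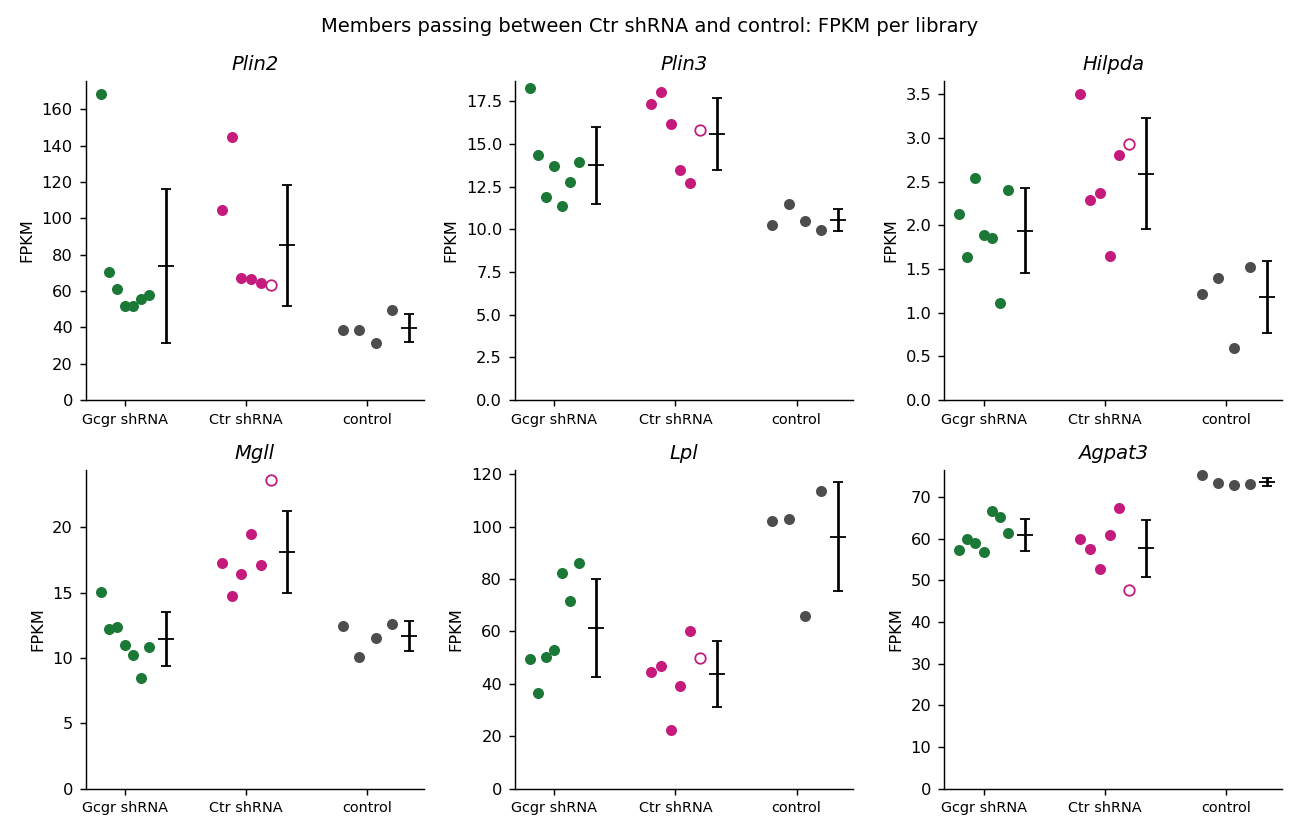
FPKM per library of the 6 genes that passed in Ctr shRNA against control, in 6 panels with linear axes, as dots for libraries labelled Gcgr shRNA (n = 7), Ctr shRNA (n = 6, the open circle is Ctr shRNA 20) and control (n = 4), with bars for the mean ± SD. Plin2, Plin3, Hilpda and Mgll are higher in every Ctr shRNA library than in any control library, and Lpl and Agpat3 are lower.

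Lpl (ENSMUSG00000015568, chromosome 8, 68880491 to 68907448, plus strand) had the log2 fold change farthest from 0 among the 6 on the log2(FPKM + 1) scale. It was at 36.6, 53.1 and 86.1 FPKM in the libraries labelled Gcgr shRNA, at 22.3, 45.7 and 60.1 FPKM in Ctr shRNA, and at 102, 103, 66.0 and 114 FPKM in control. The highest Ctr shRNA library was below the lowest control, and control 39 was well below the other 3 control libraries. Lpl fell to 0.452 times control in Ctr shRNA (-1.15 ± 0.26, limma adjusted p = 0.0123) and passed in all 26 alternatives. Without Ctr shRNA 20, which held fat-cell transcripts, the log2 fold change was -1.19. The other uptake and binding genes did not pass. Slc27a4, a fatty acid transport protein, averaged 14.98 ± 1.27 FPKM in Ctr shRNA and 16.9 ± 0.211 FPKM in control without overlap (-0.16 ± 0.06, limma adjusted p = 0.117). Cd36 had a log2 fold change of -0.01 ± 0.16 (0.04 without Ctr shRNA 20), Slc27a1 of -0.21 ± 0.14, and Vldlr, a lipoprotein receptor, of -0.11 ± 0.08. Fabp3, a fatty acid carrier of muscle and kidney, averaged 83.2 ± 25.9 FPKM in Ctr shRNA and 68.1 ± 2.75 FPKM in control (0.23 ± 0.18, and 0.35 without Ctr shRNA 20). Fabp4, its relative in fat cells and capillaries, had 0.84 ± 0.44 (limma adjusted p = 0.267), and 0.35 without Ctr shRNA 20 (adjusted p = 0.208).

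Agpat3 (ENSMUSG00000001211, chromosome 10, 78269178 to 78352489, minus strand) adds the second fatty acid to the glycerol backbone. It was at 56.7, 59.8 and 66.5 FPKM in the libraries labelled Gcgr shRNA, at 47.6, 58.8 and 67.3 FPKM in Ctr shRNA, and at 75.1, 73.3, 72.7 and 73.0 FPKM in control. All 13 libraries of the shRNA groups lay below all 4 controls, whose SD was 1.07 FPKM. Agpat3 fell to 0.783 times control in Ctr shRNA (-0.35 ± 0.08, limma adjusted p = 0.0145). The call was lost when the 2 groups were fitted alone (adjusted p = 0.05004) and without control 37 (adjusted p = 0.0517). Without Ctr shRNA 20, the lowest library, it stayed (-0.30, adjusted p = 0.0163).

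The other 9 glycerolipid genes did not pass in Ctr shRNA against control. Gpam, the mitochondrial enzyme of the first step, averaged 21.3 ± 4.07 FPKM in Ctr shRNA and 24.6 ± 2.49 FPKM in control (-0.22 ± 0.14). Its relatives Gpat3 and Gpat4 had log2 fold changes of 0.21 ± 0.23 and -0.16 ± 0.09, with 0.10 for Gpat3 without Ctr shRNA 20. Agpat1 and Agpat2, which catalyse the second step, had -0.10 ± 0.07 and 0.29 ± 0.13, with 0.19 for Agpat2 without that library. The lipins Lpin1 and Lpin2, which remove phosphate in the step before the last, had -0.07 ± 0.20 and 0.04 ± 0.10, with 0.05 for Lpin1 without it. Dgat2, which adds the last fatty acid, was the most abundant of the role, at 74.9, 99.1 and 108 FPKM in the libraries labelled Gcgr shRNA, 62.6, 89.7 and 133 FPKM in Ctr shRNA, and 101, 90.9, 83.8 and 92.6 FPKM in control, with full overlap. Dgat1, the other enzyme of that step, averaged 11.6 ± 0.913 FPKM in Ctr shRNA and 11.6 ± 0.700 FPKM in control. Agpat2 overlaps Egfl7 on the opposite strand, at a mean of 10.8 FPKM.

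Among the 6 genes of fatty acid synthesis, 5 had log2 fold changes below 0 in Ctr shRNA against control, with a median of -0.22, and none passed. Fasn, at the levels above, had -0.20 ± 0.09 (limma adjusted p = 0.199), Me1 -0.24 ± 0.13 and Acaca -0.18 ± 0.11. Acss2, which activates acetate, averaged 28.2 ± 5.94 FPKM in Ctr shRNA and 36.0 ± 1.97 FPKM in control (-0.37 ± 0.18), and it overlaps Gss on the opposite strand, at a mean of 61.3 FPKM. Acly, the citrate lyase that supplies acetyl-CoA, was the exception at 0.06 ± 0.08. Acacb, the carboxylase of the mitochondrial surface, turned on 1 library. It was at 6.15 FPKM in Ctr shRNA 20 and at 2.50 to 3.70 FPKM in the other 5 Ctr shRNA libraries, against 4.06, 4.12, 5.27 and 5.34 FPKM in control. Its log2 fold change was -0.32 ± 0.16 with all libraries (limma adjusted p = 0.260), and without Ctr shRNA 20 it fell by 0.45 (adjusted p = 0.0447).

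Neither transcription factor passed. Srebf1, which encodes the sterol-regulated activator SREBP-1, was at 5.55, 7.07 and 8.10 FPKM in the libraries labelled Gcgr shRNA, at 5.19, 5.73 and 13.3 FPKM in Ctr shRNA, and at 6.75, 6.78, 8.08 and 5.79 FPKM in control. The highest value was that of Ctr shRNA 20. Its log2 fold change in Ctr shRNA against control was -0.06 ± 0.18 with all libraries and -0.24 ± 0.10 without that one (limma adjusted p = 0.127). Mlxipl, which encodes the glucose-responsive activator ChREBP, was at 30.8, 35.8 and 49.7 FPKM in the libraries labelled Gcgr shRNA, at 34.7, 39.2 and 45.8 FPKM in Ctr shRNA, and at 41.04, 42.01, 37.2 and 36.8 FPKM in control, with a log2 fold change of 0.01 ± 0.12.

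Of the elongases, Elovl1, which lengthens saturated very-long-chain fatty acids, was at 34.5, 36.2 and 43.8 FPKM in the libraries labelled Gcgr shRNA, at 33.3, 39.8 and 47.9 FPKM in Ctr shRNA, and at 33.7, 33.8, 33.9 and 36.6 FPKM in control. The lowest of the Ctr shRNA values was that of library 20, and the other 5 lay at 39.1 FPKM or more, above all controls. The log2 fold change was 0.22 ± 0.09 (limma adjusted p = 0.129), and without library 20 Elovl1 rose by 0.28 (adjusted p = 0.0384). Cdc20 overlaps Elovl1 on the opposite strand and reached 15.5 FPKM in 1 library. Elovl6, which lengthens palmitate, had -0.02 ± 0.18 (-0.19 without library 20), and Elovl7 0.12 ± 0.11.

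The remaining lipolysis genes did not pass. Pnpla2, which encodes ATGL, the first lipase of the chain, averaged 56.8 ± 17.9 FPKM in Ctr shRNA and 57.1 ± 4.56 FPKM in control (-0.06 ± 0.16, and -0.20 without Ctr shRNA 20), and Abhd5, its coactivator, averaged 6.91 ± 0.555 FPKM in Ctr shRNA and 6.37 ± 0.515 FPKM in control (0.10 ± 0.07). Lipe, hormone-sensitive lipase, had 0.31 ± 0.21, and 0.10 without Ctr shRNA 20 (adjusted p = 0.630). G0s2, an inhibitor of ATGL, had the highest mean of the role over all 17 libraries, although Lipa was higher in control. It was at 79.7, 95.6 and 161 FPKM in the libraries labelled Gcgr shRNA, at 68.2, 99.3 and 219 FPKM in Ctr shRNA, and at 83.7, 84.1, 31.1 and 95.6 FPKM in control. Control 39 was lowest for G0s2, as it was for Hilpda and Plin2, and the log2 fold change of 0.67 ± 0.32 did not pass (limma adjusted p = 0.214). Lipa, the acid lipase of the lysosome, averaged 74.9 ± 7.87 FPKM in Ctr shRNA and 83.7 ± 11.2 FPKM in control (-0.15 ± 0.10).

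**Figure D3:**
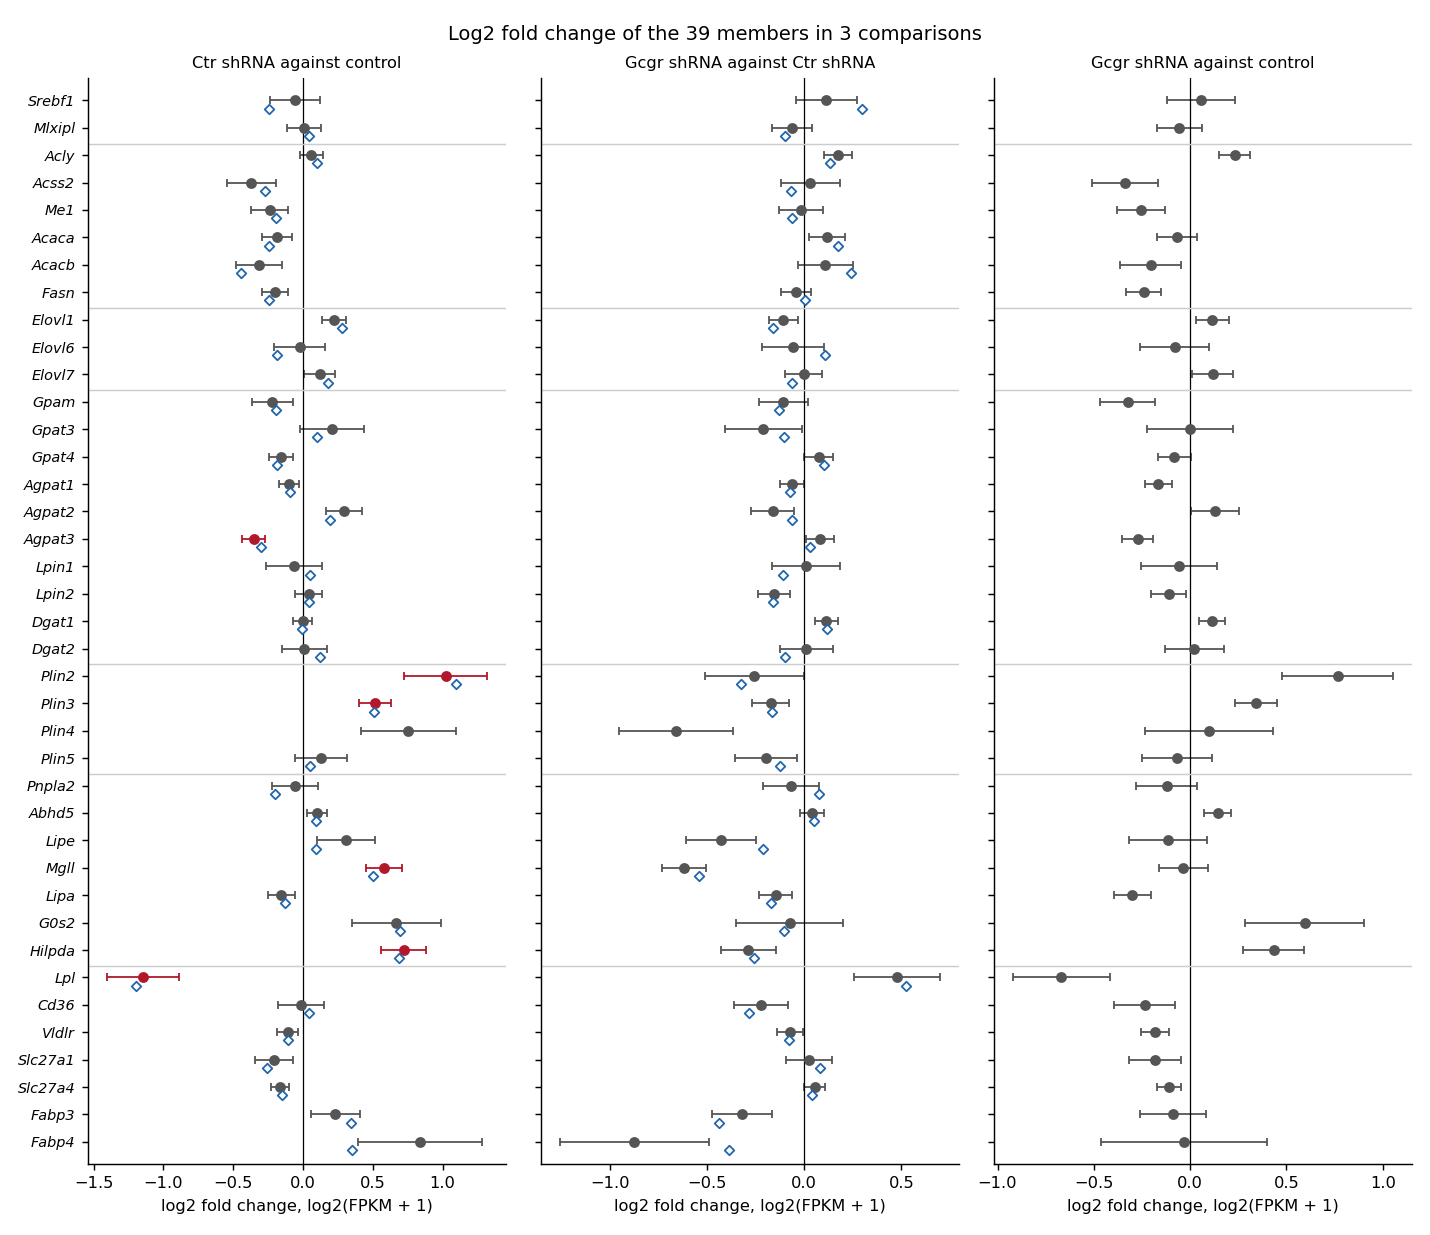
Log2 fold change ± SE on the log2(FPKM + 1) scale for each of the 39 genes in 3 panels, Ctr shRNA against control, libraries labelled Gcgr shRNA against Ctr shRNA, and libraries labelled Gcgr shRNA against control. Red marks an adjusted p below 0.05, which 6 genes reach in the first comparison and none in the others, and open diamonds in the first 2 panels give the value without Ctr shRNA 20.

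The second comparison set the libraries labelled Gcgr shRNA against Ctr shRNA, and asks what a hairpin against the glucagon receptor does in kidneys with the same disease abbreviation. No gene of the 39 passed limma's test, nor did any of the 13279 genes (0%). Voom called none of the 39 and none of all genes either. At an unadjusted p below 0.05 there were 6 of the 39 (15.4%), against 7.32% of all genes, and 7 with voom (1007 of all 13279 genes). Acly and Lpl were higher (4.1% of all genes were), and Plin4, Lipe, Mgll and Fabp4 lower (3.22%). Without Ctr shRNA 20 none of 38 passed, against 0.0152% of all genes, all of them higher (0.0152%). At an unadjusted p below 0.05 there were then 8 of the 38 (21.1%), against 7.43% of all genes. Srebf1, Acacb and Lpl were higher, and Elovl1, Lipe, Mgll, Fabp3 and Fabp4 lower. Of the 39 log2 fold changes 14 were above 0 and 25 below, with a median of -0.06, against 48.5% above 0 and a median of -0.0043 over all genes. The 4 droplet coat genes were all below 0 (median -0.23), as were 6 of the 7 lipolysis genes (median -0.15). When Ctr shRNA 20 was left out, 3 of the 3 droplet coat genes still tested were below 0 (median -0.17), and 5 of the 7 lipolysis genes (median -0.17), Pnpla2 being at 0.08.

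Mgll came nearest to the threshold. At the levels above, only the library labelled Gcgr shRNA 13, at 15.1 FPKM, exceeded the lowest Ctr shRNA library, at 14.7 FPKM. The log2 fold change was -0.62 ± 0.11 (limma adjusted p = 0.0911), and -0.54 without Ctr shRNA 20 (adjusted p = 0.104). Without the library labelled Gcgr shRNA 13, the 1 that overlapped Ctr shRNA, the log2 fold change was -0.68 (adjusted p = 0.0323). In that fit 3 of all 13219 genes passed, 1 higher and 2 lower. Leaving out the library that overlaps itself favours a call. That was the only 1 of 26 alternatives in which Mgll passed, and its adjusted p reached 0.259. Lpl averaged 61.3 ± 18.7 FPKM in the libraries labelled Gcgr shRNA and 43.8 ± 12.6 FPKM in Ctr shRNA (0.48 ± 0.22, limma adjusted p = 0.681). Acly averaged 44.0 ± 4.31 FPKM in the libraries labelled Gcgr shRNA and 38.9 ± 3.47 FPKM in Ctr shRNA (0.17 ± 0.07, limma adjusted p = 0.604).

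Mgll and the 3 other genes below 0 at an unadjusted p below 0.05 were all at their highest in Ctr shRNA 20. Fabp4 averaged 8.66 ± 1.22 FPKM in the libraries labelled Gcgr shRNA, and 25.4 ± 33.5 FPKM in Ctr shRNA with that library or 11.8 ± 2.90 FPKM without it. Its log2 fold change was -0.87 ± 0.38 with library 20 (limma adjusted p = 0.634) and -0.39 without it (adjusted p = 0.553). Lipe had -0.43 ± 0.18 (limma adjusted p = 0.606), and -0.21 without it (adjusted p = 0.647). Plin4 had -0.66 ± 0.29 (adjusted p = 0.646). Fabp3 averaged 64.4 ± 8.20 FPKM in the libraries labelled Gcgr shRNA and 83.2 ± 25.9 FPKM in Ctr shRNA (-0.32 ± 0.15, limma adjusted p = 0.681). Its log2 fold change without Ctr shRNA 20 was -0.44 (adjusted p = 0.438). Of the genes of synthesis, Fasn had a log2 fold change of -0.04 ± 0.08 (limma adjusted p = 0.937). Srebf1 had 0.11 ± 0.16 (limma adjusted p = 0.906), and 0.30 without Ctr shRNA 20 (adjusted p = 0.332).

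For the droplet coat, Plin2 had a log2 fold change of -0.26 ± 0.26 (limma adjusted p = 0.871) and Plin3 of -0.17 ± 0.10 (adjusted p = 0.740). The library labelled Gcgr shRNA 13 was highest of all 17 libraries for each, at 169 FPKM of Plin2 and 18.3 FPKM of Plin3. The other 6 libraries of that label lay at 51.8 to 70.7 FPKM of Plin2 and 11.4 to 14.3 FPKM of Plin3. Without library 13 the log2 fold changes were -0.47 for Plin2 (adjusted p = 0.504) and -0.24 for Plin3 (adjusted p = 0.441). The same 3 libraries, Gcgr shRNA 13, Ctr shRNA 4 and Ctr shRNA 1, were highest for both genes, an order that was noticed after the values were seen. Hilpda had -0.29 ± 0.14 (limma adjusted p = 0.689).

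**Figure D4:**
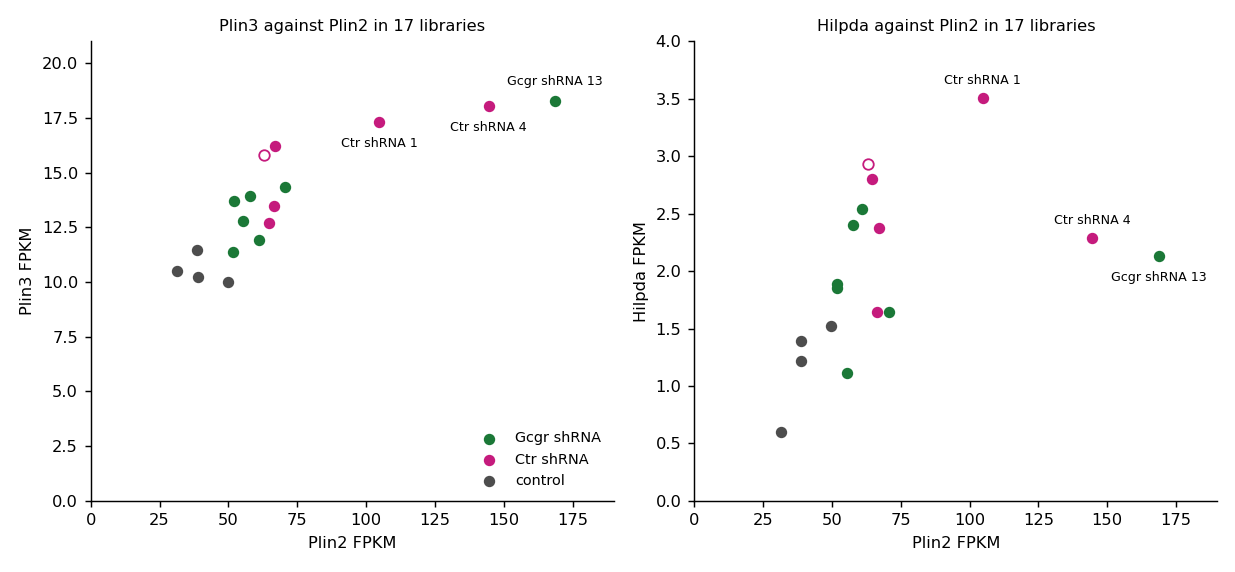
FPKM of Plin3 and of Hilpda against FPKM of Plin2 in the 17 libraries, by group. Gcgr shRNA 13, Ctr shRNA 4 and Ctr shRNA 1 hold the 3 highest levels of both Plin2 and Plin3, while Hilpda is highest in Ctr shRNA 1.

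The third comparison set the libraries labelled Gcgr shRNA against control, and shares its libraries with the other comparisons, so the 3 are not independent. Again none of the 39 genes passed limma's test, against 2.02% of all genes (1.42% higher and 0.595% lower). Voom called 1, Agpat3 (adjusted p = 0.0231), and 236 of all 13279 genes. At an unadjusted p below 0.05 there were 11 (28.2%), against 16.2% of all genes, and 13 with voom (2048 of all 13279 genes). Acly, Plin2, Plin3 and Hilpda were higher (8.8% of all genes were), and Fasn, Gpam, Agpat1, Agpat3, Lipa, Lpl and Vldlr lower (7.4%). Of the 39 log2 fold changes 13 were above 0 and 26 below, with a median of -0.07, against 48.8% above 0 and a median of -0.0049 over all genes. The 7 uptake and binding genes were all below 0 (median -0.18).

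Agpat3 averaged 60.8 ± 3.79 FPKM in the libraries labelled Gcgr shRNA and 73.5 ± 1.07 FPKM in control without overlap (-0.27 ± 0.08, limma adjusted p = 0.0970), and without Ctr shRNA 20 it was the 1 gene of 38 to pass (adjusted p = 0.0380), where 2.48% of all genes did (0.781% lower). Plin2 averaged 73.9 ± 42.3 FPKM in the libraries labelled Gcgr shRNA and 39.7 ± 7.55 FPKM in control, again without overlap (0.77 ± 0.29, limma adjusted p = 0.194). Slc27a4 was the other gene of the 39 without overlap, so that 3 (7.69%), 1 higher and 2 lower, had none, against 5.54% of all genes (3.31% higher and 2.23% lower). In Ctr shRNA against control that number was 8 (20.5%), 5 higher and 3 lower, against 10.1% of all genes (4.71% higher and 5.41% lower), and between the shRNA groups it was 0, against 0.203%. Those 5 include Plin4, which was under 1 FPKM in every control library and reached the level for testing only with Ctr shRNA 20 included. For synthesis, Fasn had -0.24 ± 0.09 (limma adjusted p = 0.184), Gpam -0.32 ± 0.14 (adjusted p = 0.261) and Acly 0.23 ± 0.08 (adjusted p = 0.167). Lpl had -0.67 ± 0.25 (limma adjusted p = 0.194), Lipa -0.30 ± 0.09 (adjusted p = 0.123) and Plin3 0.34 ± 0.11 (adjusted p = 0.127). Mgll, which rose in Ctr shRNA, averaged 11.46 ± 2.05 FPKM in the libraries labelled Gcgr shRNA and 11.7 ± 1.16 FPKM in control (-0.04 ± 0.13).

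Ctr shRNA 20 was the highest of all 17 libraries for 12 of the 39 genes and the lowest for 7. The same shares over all genes were not computed, so these counts may not be particular to the 39. The 12 were Srebf1, Acaca, Acacb, Elovl6, Gpat3, Agpat2, Plin4, Plin5, Pnpla2, Lipe, Mgll and Fabp4, and the 7 were Acly, Acss2, Elovl1, Elovl7, Agpat3, Lpin1 and Dgat2. Its Fabp4 was 8.22 times the median of the other 5 Ctr shRNA libraries, at 93.7 FPKM against 9.37 to 16.6 FPKM. Plin4 was 8.16 times that median and Lipe 2.68 times. The 12 fat-cell markers summed to 676 FPKM in Ctr shRNA 20, of which Cfd made up 486 FPKM. All 12 were above 0 there, and 11, all but Pnpla3, were at their highest. Elsewhere the 12 markers summed to 1.36 to 39.5 FPKM in the libraries labelled Gcgr shRNA, 1.43 to 22.0 in the other Ctr shRNA libraries and 1.54 to 18.5 in control. The sum was 39.5 FPKM in Gcgr shRNA 29, 22.2 in Gcgr shRNA 35, 22.0 in Ctr shRNA 19 and 18.5 in control 39. The remaining libraries lay at 1.36 to 3.65 FPKM. Adipoq, which fat cells make and kidney cells do not, was at 45.3 FPKM in Ctr shRNA 20, and listed at 0 in 9 of the other 16 libraries. The 9 urothelial markers summed to 203 FPKM there and to at most 12.8 FPKM in any other library. Their part in the levels of the 39 genes was not tested, and the values without that library are given above.

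**Figure D5:**
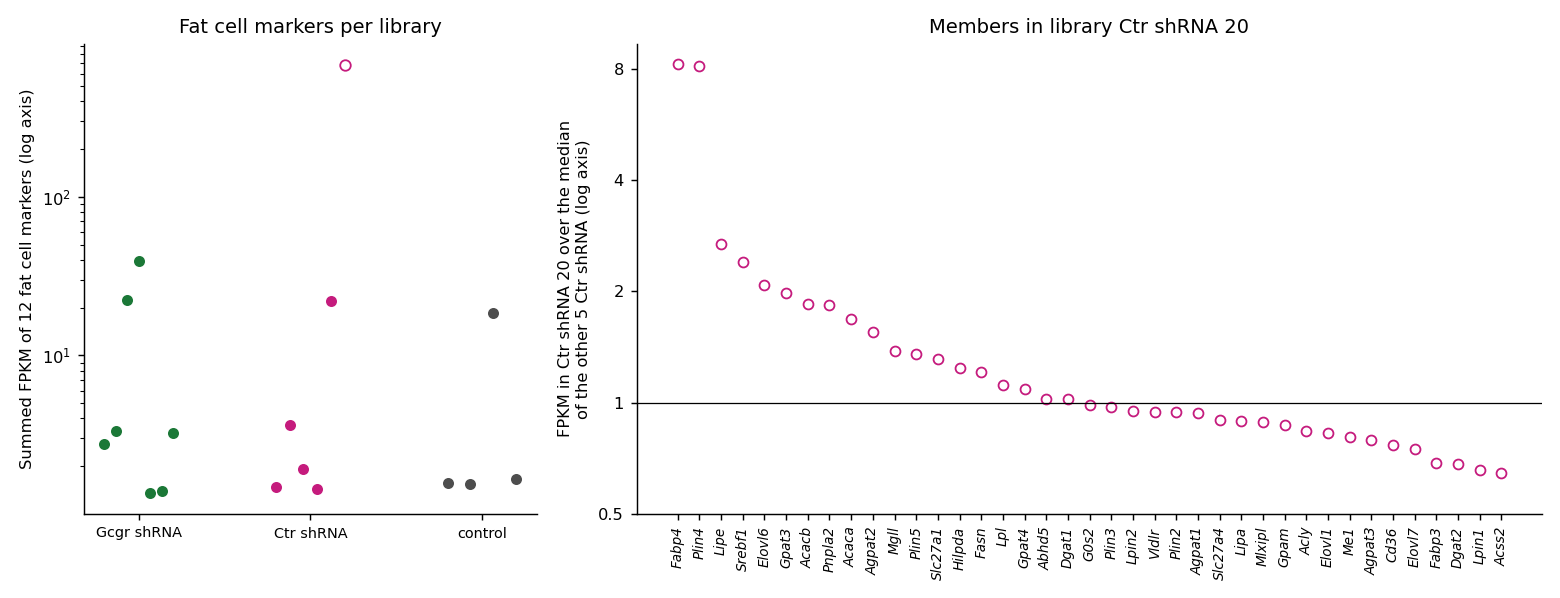
Left, summed FPKM of 12 fat-cell markers in each library on a log axis, with Ctr shRNA 20 at 676 FPKM. Right, the FPKM of each of the 39 genes in Ctr shRNA 20 divided by the median of the other 5 Ctr shRNA libraries, on a log axis, with Fabp4 and Plin4 above 8.

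Markers of some other cell types also moved with the groups. Of 15 proximal tubule markers, 7 fell in Ctr shRNA against control (5 without Ctr shRNA 20), as did 3 of 6 markers of the thick ascending limb. Of all genes, 3.91% were called lower in that comparison (3.52% without Ctr shRNA 20). In the libraries labelled Gcgr shRNA against control, 1 of the 15 proximal tubule markers fell (2 without Ctr shRNA 20) and 0 of 15 had a log2 fold change above 0, with a median of -0.32. There 0.595% of all genes were called lower (0.781% without Ctr shRNA 20), and 48.8% were above 0. For the libraries labelled Gcgr shRNA against Ctr shRNA, 12 of the 15 were above 0 (median 0.12, and 0.06 without Ctr shRNA 20). So were 5 of the 6 thick ascending limb markers (median 0.50, and 0.37 without Ctr shRNA 20). Of all genes, 48.5% were above 0 in that comparison. Of 7 tested macrophage markers 2 rose and 1 fell in Ctr shRNA against control, where 3.58% of all genes were called higher and 3.91% lower. The 10 listed macrophage markers summed to 96.4 to 168 FPKM in the libraries labelled Gcgr shRNA, 69.3 to 170 in Ctr shRNA and 68.1 to 90.5 in control. Of 12 endothelial markers and 5 tested podocyte markers none passed with limma in any comparison. Lpl, Plin2, Lipa, Cd36 and Fabp4 are also expressed by macrophages or endothelium. The part of these cells in the results was not tested.

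Other genes of lipid metabolism, a list of 69 of which 67 were matched and 59 tested, gave 2 that rose and 5 that fell in Ctr shRNA against control, with a median log2 fold change of -0.01, where 3.58% of all genes were called higher and 3.91% lower. When Ctr shRNA 20 was left out, 3 rose and 6 fell, where 4.16% of all genes were called higher and 3.52% lower. Mogat1 was added to those that rose and Elovl5 to those that fell. Elovl2 and Hacd1, which take part in fatty acid elongation, rose by 0.56 each, with limma adjusted p of 0.0426 and 0.0238. Among those that fell was Slc27a2, which activates and imports fatty acids in the proximal tubule, at 776 ± 171 FPKM in Ctr shRNA and 1217 ± 44.3 FPKM in control (-0.68 ± 0.14, limma adjusted p = 0.00879). Acss1, which activates acetate in mitochondria, averaged 27.4 ± 2.42 FPKM in Ctr shRNA and 42.5 ± 4.76 FPKM in control (-0.62 ± 0.13, adjusted p = 0.00880). The others that fell were the desaturases Scd1, Fads1 and Fads2, with log2 fold changes of -2.52 ± 0.24, -0.76 ± 0.10 and -0.85 ± 0.14. None of the 59 passed between the shRNA groups. In the libraries labelled Gcgr shRNA against control 2, Scd1 and Fads1, fell, where 0.595% of all genes were called lower. Slc27a2 joined them without Ctr shRNA 20, where 0.781% of all genes were called lower.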

How the data were processed

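Per the labels' protocols, Trizol was used for kidney RNA and a SMARTer mRNA-Seq kit for libraries. Per the file headers, the authors deposited FPKM by gene and library in 1 table, beside the length and position of each gene. Not given in the sources used here were the aligner, counter and use of strand. The builds GRCm38 and mm10 are named per the submitters' processing notes. Without strand, overlapping genes cannot be told apart, and 10 of the 39 genes overlap another at 1 FPKM or more in some library. Of the 39, 38 had the same coordinates in GENCODE M21. Of the table, 1 incomplete line was left out. Low FPKM values (up to 200 steps) times gene length moved in equal steps within a library (100% of values, to 0.05 of a step), which gave the recovered reads. The authors' library size was 0.949 to 1.15 times their sum.

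FPKM was transformed to log2(FPKM + 1), which understates changes at low levels. Genes that reached 1 FPKM in any 4 libraries were compared in R 4.3.3 by limma-trend (limma 3.58.1), with one mean per group over all 17 libraries and Benjamini-Hochberg adjustment over the 13279 genes, at a threshold of 0.05. Folds are taken on that scale. Promoters were read from RefSeq windows on GRCm38.p6. Alternatives changed the pseudocount, filter, scaling, variance model, groups fitted and libraries left out. All 39 genes are accounted for. Library values are given for genes that pass or whose call changes without Ctr shRNA 20, for the most abundant gene per role, and for a few others chosen after their values were seen. The genes and lists were chosen with earlier results of these data known.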

Additional observations from a re-analysis of the deposited data

Results flagged for a closer look

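In 13 of 117 groups of libraries (39 genes in 3 groups), the highest library stood apart from the rest of its group by more than the 95% limit of Dixon's gap ratio. Chance flags about 1 in 20 groups. Of the 13, 6 were in Ctr shRNA 20. That library was at 13.3 FPKM of Srebf1 (the other 5 at 5.19 to 6.10), 6.15 FPKM of Acacb (2.50 to 3.70), 5.01 FPKM of Elovl6 (1.37 to 2.59), 7.51 FPKM of Plin4 (0.792 to 1.57), 19.5 FPKM of Lipe (6.37 to 9.91) and 93.7 FPKM of Fabp4 (9.37 to 16.6). Its fat-cell marker sum was 676 FPKM, against at most 39.5 FPKM elsewhere, and the part of that in these values was not tested.

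The library labelled Gcgr shRNA 13 was at 169 FPKM of Plin2, with the other 6 of that label at 51.8 to 70.7, and at 18.3 FPKM of Plin3, with the others at 11.4 to 14.3. Its fat-cell marker sum was 2.76 FPKM.

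The library labelled Gcgr shRNA 29 was at 9.80 FPKM of Fasn (the others at 6.65 to 7.97), and the one labelled Gcgr shRNA 34 at 21.9 FPKM of Lpin1 (11.9 to 15.7). Ctr shRNA 4 was at 219 FPKM of G0s2 (68.2 to 119). Control 41 was at 36.6 FPKM of Elovl1 (33.7 to 33.9) and at 12.1 FPKM of Lpin2 (9.20 to 9.57).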

How the results depend on the processing

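No paired analysis was possible because the 3 groups share no replicate numbers. The 6 genes called in Ctr shRNA against control kept their sign in every alternative run, and no result reversed. Of 111 results of a gene in a comparison without a call, 25 changed sign under some alternative. Leaving out 1 library gave 4 to 8 genes of the 39 in Ctr shRNA against control and 456 to 1264 of all genes (994 with all libraries). Between the libraries labelled Gcgr shRNA and Ctr shRNA it gave 0 to 1 of the 39 and 0 to 3 of all genes, and against control 0 to 1 of the 39 and 103 to 348 of all genes (268 with all libraries).

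Without the filter 597 of all genes passed in Ctr shRNA against control, and 155 in the libraries labelled Gcgr shRNA against control. Sample weights gave 2087 and 1070 in these comparisons. They also gave 6 of the 39 genes in the libraries labelled Gcgr shRNA against control (Plin2, Plin3, Acly, Fasn, Agpat3 and Lipa). The libraries labelled Gcgr shRNA against control gave 154 of all genes among those averaging 5 FPKM or above, and 438 with the 2 groups fitted alone. Voom gave 236 of all genes there, and rescaling to the same total 261. Agpat3 was the 1 of the 39 called with voom, with that rescaling and with the 2 groups alone. Between the shRNA groups 1 of all genes passed with the 2 groups alone, with genes averaging 5 FPKM or above, and with a pseudocount of 0.1. The causes were not tested. With 4 to 7 libraries a group and SDs such as those of Plin2, G0s2 and Fabp4, a call missed here does not show that groups are alike.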
